A study of Mus musculus with 16 samples.

Results

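CD23 (Fcer2a), the low-affinity receptor for IgE, parts the splenic B-cells of the mouse into 2 classes. In the sort used here it was low on the immature transitional 1 (T1) and on the marginal zone (MZ) B-cells, and present on the transitional 2 (T2) and follicular (FO) B-cells. The genes described here are those for which T1 and MZ B-cells, at opposite ends of maturation, lay on the same side of both T2 and FO B-cells. RNA-Seq values, as reads scaled to exon length and library size (RPKM), were compared on the scale log2(RPKM + 0.5), with genotype as a covariate, between the 8 CD23-low and the 8 CD23-high libraries, and a gene was a member when the mean of T1 and the mean of MZ were both above, or both below, the means of T2 and FO in each genotype. Of 12507 genes tested (group mean over 1 RPKM in at least 1 of the 8 groups) out of 38355 in the deposited values, 2425 were members, 19.4%, with 1013 higher and 1412 lower in the CD23-low subsets.

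The 16 libraries came from spleens of C57BL/6 mice, WT or lacking miR-146a (KO, Mir-146a-/-), with 4 subsets per genotype and 2 replicates per group, and each library was made from cells of several pooled spleens. T1 cells were sorted as CD23-negative, AA4-positive and IgM-high with little or no CD21, T2 cells as CD23-positive, AA4-positive and IgM-high with low CD21, MZ cells as CD23-negative, AA4-negative, IgM-high and CD21-high, and FO cells as CD23-positive, AA4-negative, IgM-low with intermediate CD21. Both classes therefore held 1 immature and 1 mature subset, each from WT and from KO mice. The replicates are described as biological. The methods describe sorting pooled spleens into the subsets, without saying whether libraries with the same replicate number came from 1 pool.

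T1 cells have just arrived from the bone marrow, lodge outside the follicle and die readily when their antigen receptor is engaged. T2 cells enter the follicle, take up CD23 and CD21, and give rise to FO cells, which recirculate, and to MZ cells, which stay at the marginal sinus in contact with blood. MZ cells answer blood-borne antigen fast, through Toll-like receptors and the antigen receptor, and their fate depends on Notch2 signalling.

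The promoters of 5 genes that the results below turn on are shown first, because the CD23-low subsets part from the CD23-high subsets in all of them: Fcer2a (the sorted marker), S1pr3 and Prdm1 (higher in CD23-low), Itgb7 and Crisp3 (lower). Each is the 250 bases before an annotated start in RefSeq on GRCm38.p6, written 5′ to 3′ on the strand of the gene, for Fcer2a at chr8:3690862-3691111 on the minus strand (1 of its 3 starts), S1pr3 at chr13:51408368-51408617 on the plus strand, Prdm1 at chr10:44458749-44458998, Itgb7 at chr15:102231936-102232185 and Crisp3 at chr17:40242289-40242538, the last 3 on the minus strand. Capitals mark matches on either strand to 3 motifs, a KLF type (CCNCNCCC), an E-box (CAGCTG) and an RBPJ type (TGGGAA). Matches can overlap, as 2 of the KLF type did in S1pr3.
Fcer2a: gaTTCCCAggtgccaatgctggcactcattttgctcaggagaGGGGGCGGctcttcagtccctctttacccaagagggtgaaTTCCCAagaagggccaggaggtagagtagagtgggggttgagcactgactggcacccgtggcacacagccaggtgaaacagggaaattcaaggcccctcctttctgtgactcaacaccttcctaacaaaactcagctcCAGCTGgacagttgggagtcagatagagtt
S1pr3: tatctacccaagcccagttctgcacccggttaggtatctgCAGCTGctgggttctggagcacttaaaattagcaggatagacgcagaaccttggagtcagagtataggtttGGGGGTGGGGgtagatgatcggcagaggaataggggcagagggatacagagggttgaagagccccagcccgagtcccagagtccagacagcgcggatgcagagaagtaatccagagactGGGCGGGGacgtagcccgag
Prdm1: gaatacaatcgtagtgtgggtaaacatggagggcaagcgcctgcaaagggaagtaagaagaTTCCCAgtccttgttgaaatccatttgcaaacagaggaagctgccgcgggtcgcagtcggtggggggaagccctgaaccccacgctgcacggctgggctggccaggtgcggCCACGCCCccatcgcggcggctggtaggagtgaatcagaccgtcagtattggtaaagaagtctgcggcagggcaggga
Itgb7: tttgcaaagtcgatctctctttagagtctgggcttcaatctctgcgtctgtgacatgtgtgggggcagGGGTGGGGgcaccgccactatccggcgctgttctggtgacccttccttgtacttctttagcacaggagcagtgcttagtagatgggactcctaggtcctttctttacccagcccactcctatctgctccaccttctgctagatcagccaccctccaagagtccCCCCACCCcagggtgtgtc
Crisp3: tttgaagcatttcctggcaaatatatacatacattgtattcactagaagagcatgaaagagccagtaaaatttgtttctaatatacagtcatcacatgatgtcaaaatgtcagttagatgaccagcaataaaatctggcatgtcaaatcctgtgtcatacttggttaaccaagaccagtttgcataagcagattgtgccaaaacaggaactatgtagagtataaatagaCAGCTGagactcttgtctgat

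Of the called members that are described in the next paragraphs, 101 higher and 107 lower genes had a promoter entry. An E-box lay in the 250 bases of 27.7% of the higher and 15.9% of the lower genes, against 13.6% of the 8118 tested genes with an entry. The KLF type was in 73.3%, 70.1% and 66.5%, and the RBPJ type in 29.7%, 22.4% and 23.1% of the same 3 sets. A gene counted when any of its annotated starts held the letters. These shares are a description, with no test, and come from a wider search that also held an NF-kB and a STAT type motif, not reported here.

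The sort was visible in the marker it used. Fcer2a averaged 41.2 ± 13.0 RPKM in T1 and 14.7 ± 8.68 in MZ, against 655 ± 54.0 in T2 and 686 ± 59.1 in FO (SD, n = 4 libraries each). The highest CD23-low library reached 56.4 RPKM and the lowest CD23-high library 604 RPKM, so the classes did not overlap. Cr2 (CD21), the second gate, did not follow CD23. It averaged 13.9 ± 1.95 RPKM in T1, 653 ± 59.5 in MZ, 85.7 ± 5.56 in T2 and 120 ± 16.6 in FO, which put T1 below and MZ above both CD23-high subsets (1 of its 2 identifiers in the files, the other ordered alike).

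Depth ran from 9003343 to 26386684 reads, and Spearman's correlation between replicates was 0.961 to 0.987. The WT and KO T1 replicate 2 libraries held 22.9% and 25.7% of their summed RPKM in 10 genes, against 9.49% to 15.5% in the other libraries. The KO replicate 1 libraries of the 4 subsets had the 4 lowest scores on the third principal component, which carried 8.68% of the variance. The second component put all CD23-low libraries above all CD23-high libraries. Mir146, the targeted gene, was at 0.583 and 0.656 RPKM in the WT FO libraries and listed at 0 in the other 14, 6 of them WT, so these values could not check the deletion.

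A gene was called at a Benjamini-Hochberg adjusted p under 0.05 (limma, over all genes tested) with a log2 difference beyond 1. Between the CD23 classes 355 genes were called, 2.84% of those tested, with 193 higher (1.54%) and 162 lower (1.30%) in the CD23-low libraries, and 330 of them, 178 higher and 152 lower, also met the ordering, leaving 25 called genes that did not and 2095 members that were not called. Of the 2425 members, 1704 had an adjusted p under 0.05 at any size. The values of this contrast chose the members, so the 330 are described here as members rather than as a test of them. Counts, shares and medians of members below refer to these 330 called members. Within the gene lists, called genes are counted among the 355, and medians cover every tested gene of the list. The SE given for single genes counts the 8 libraries of a class as replicates, though each class joins 2 subsets. In 192 of the 330 the 8 CD23-low and the 8 CD23-high libraries did not overlap at all, against 567 such genes, 4.53%, among all tested. The 330 held 46 predicted genes and 20 immunoglobulin segments, 19 of them higher, whose near-identical copies can share reads. In bulk RNA, fewer cells that hold a transcript and less of it per cell cannot be told apart. At the edge of the ordering, Aldoc lay inside it by 0.0027, Ddx25 by 0.012 and Irgc1 by 0.014 on the log2 scale, and Shisa5, H2-Aa and Scimp lay outside it by 0.013, 0.035 and 0.039.

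**Figure D1:**
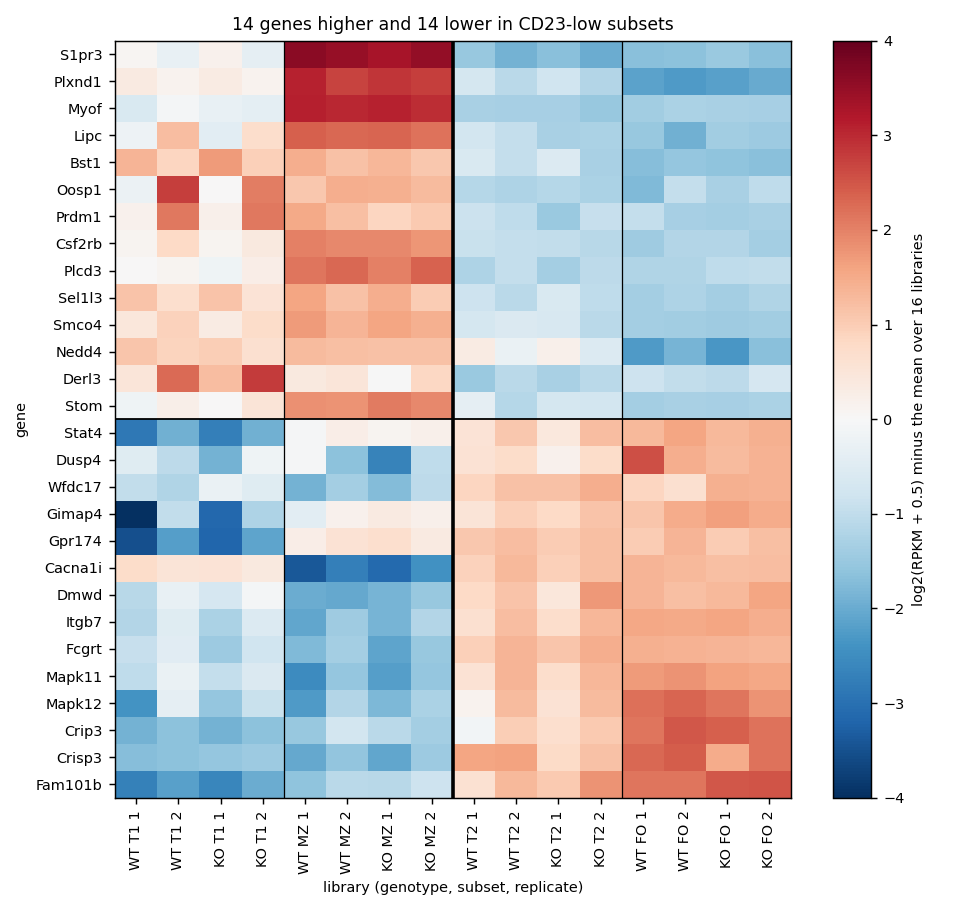
Heat map of the 14 most increased and the 14 most decreased genes that were called, met the ordering and did not overlap between the classes. Segments, sort markers and predicted genes are left out. Columns are the 16 libraries, T1 and MZ left of the thick line, T2 and FO right of it. Colours are log2(RPKM + 0.5) minus the mean of the gene over all libraries. S1pr3 (log2 difference 3.38) and Fam101b (-3.51) bound the list, and the MZ libraries are darkest for S1pr3, Plxnd1 and Myof.

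Both classes join 2 subsets, so each member was also looked at step by step, T1 against T2 and MZ against FO, 2 comparisons that share no library. T1 differed from T2 in 713 genes, 5.70%, and MZ from FO in 1182 genes, 9.45%. Of these, 133 were called in the same direction in both, 63 higher and 70 lower, 18.7% of the first list and 11.3% of the second. Among the 355 were 131 of the 133, but the class difference is the mean of the 2 steps. That overlap therefore largely follows from the same values and is no separate support. In the opposite direction 67 genes were called, 39 of them higher in T1 than T2 and lower in MZ than FO. Across all genes tested the differences of the 2 steps correlated with Pearson's r = 0.06, a description over genes that are not independent. Among the 330 members, 125 were called in both steps, 166 in MZ against FO alone, 38 in T1 against T2 alone and 1 in neither.

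**Figure D2:**
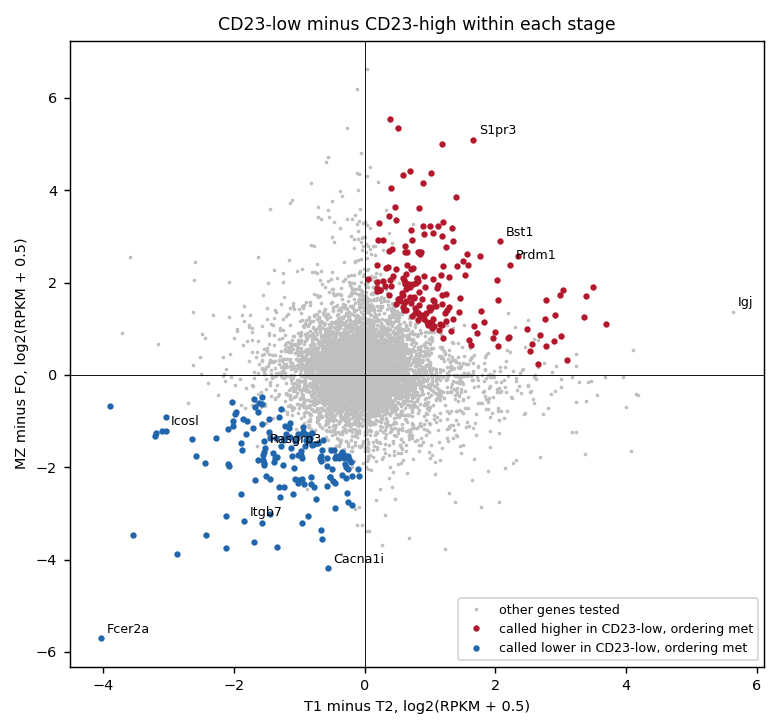
Each point is a gene, with its T1 minus T2 difference on the horizontal and its MZ minus FO difference on the vertical axis, both on the log2(RPKM + 0.5) scale. Red and blue points are the 178 higher and 152 lower members, which lie in the upper right and lower left. S1pr3 stands at 1.66 and 5.10, Fcer2a at -4.03 and -5.70, and Igj, no member, at 5.63 and 1.37.

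Of the 330 members, 165 were not called between T1 and MZ, and 8 of these are given first. Rasgrp3, an exchange factor that activates Ras and Rap below the antigen receptor, was at 23.6, 27.7, 23.7 and 26.3 RPKM in the WT and KO T1 libraries, 20.7, 29.8, 23.6 and 26.9 in MZ, 70.8, 78.4, 74.2 and 72.0 in T2, and 70.9, 85.0, 73.7 and 74.9 in FO. The T1 and MZ libraries overlapped, and every CD23-high library was above every CD23-low one. The class difference was -1.55 (SE 0.07), and T1 minus MZ was 0.02 (95% interval -0.20 to 0.23).

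Lmo2, a LIM-only transcriptional adaptor, ranged from 39.9 to 47.8 RPKM in T1 and 33.8 to 39.8 in MZ, against 113 to 133 in T2 and 118 to 140 in FO, with a class difference of -1.69 (SE 0.08). Its T1 minus MZ difference was 0.24 (95% interval 0.06 to 0.42). Cd83, a surface protein that holds MHC class II at the membrane, was at 47.5 and 53.3 RPKM in T1 and MZ and at 122 and 137 in T2 and FO. Sqle, an enzyme of cholesterol synthesis, was at 1.95 and 1.72 against 4.94 and 4.51. Cd83 also answers activation, and the 23 immediate early and stress genes, summed, ran from 536 to 5467 RPKM in T1, 365 to 4703 in MZ, 1354 to 4246 in T2 and 875 to 4409 in FO. Their part in its difference was not tested.

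On the other side, Prdm1 (Blimp-1, the repressor that drives plasma cell formation) was at 2.35, 10.5, 2.43 and 10.3 RPKM in the T1 libraries (WT replicates 1 and 2, then KO) and at 6.63, 5.27, 4.06 and 4.72 in MZ. It was at 0.89, 0.74, 0.41 and 0.82 in T2 and at 0.81, 0.50, 0.48 and 0.53 in FO. The T1 libraries fell into a low and a high pair by replicate number, and even the low pair was above every T2 and FO library. The class difference was 2.31 (SE 0.27), and T1 minus MZ was 0.00 with a wide interval, -0.84 to 0.85.

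Bst1, a surface enzyme that cleaves NAD, was at 5.44, 3.75, 7.11 and 4.01 RPKM in T1, 5.92, 4.70, 5.39 and 4.40 in MZ, 1.01, 0.70, 1.101 and 0.44 in T2, and 0.22, 0.30, 0.26 and 0.23 in FO. Levels in T1 and MZ overlapped fully, T2 was lower and FO lowest. The class difference was 2.48 (SE 0.20) and T1 minus MZ was -0.04 (95% interval -0.46 to 0.38). T2 minus FO was 0.77 (adjusted p = 0.0185, limma), under the size asked for a call. Nedd4, a ubiquitin ligase, was also lowest in FO, going from 69.3 ± 9.37 RPKM in T1 and 83.5 ± 2.51 in MZ to 35.4 ± 9.81 in T2 and 8.62 ± 2.00 in FO. Cfp (properdin, which stabilises the alternative complement convertase) was at 74.5 and 61.6 RPKM in T1 and MZ and 35.8 in T2, and between 11.7 and 15.5 in the FO libraries.

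**Figure D3:**
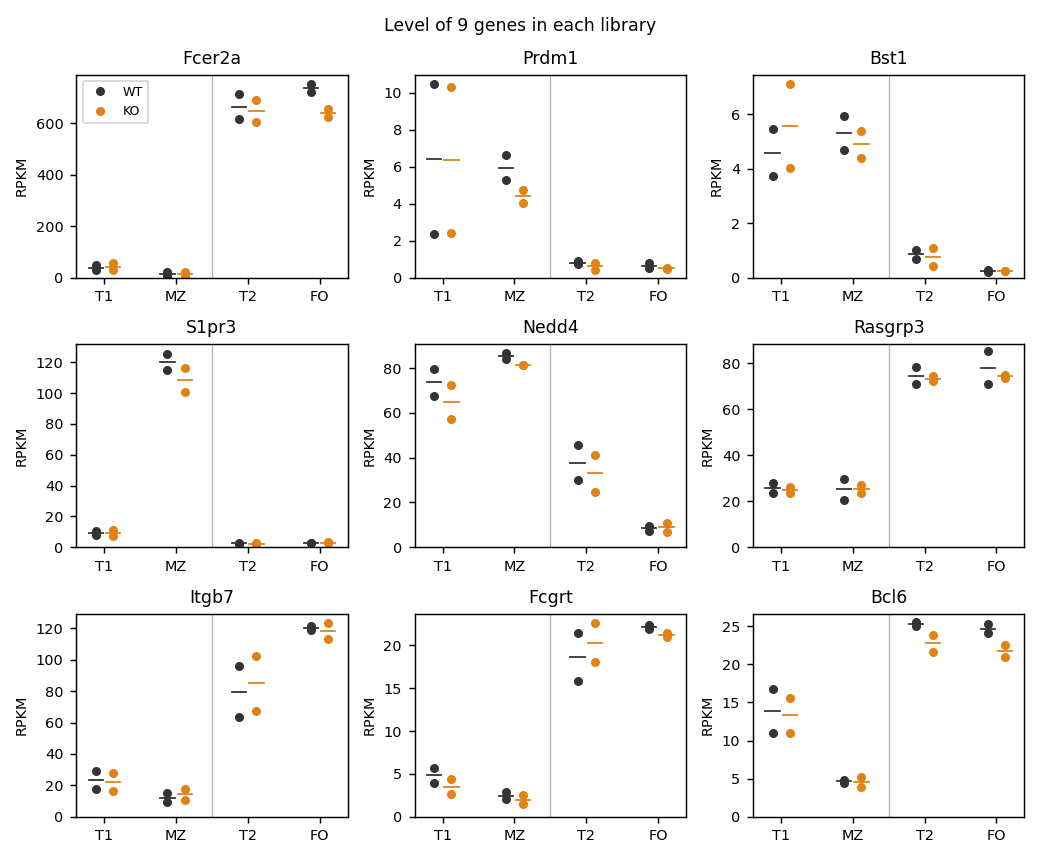
Each panel shows 1 gene, with the subset on the horizontal axis and RPKM on the vertical axis, which starts at 0. Points are libraries (black WT, orange KO) and short lines are group means of 2. Rasgrp3 is at 25.3 and 25.2 RPKM in T1 and MZ, while S1pr3 is at 114 RPKM in MZ and 9.16 in T1.

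T1 and MZ differed in 2207 genes of all tested, 17.6%, and in the other 165 of the 330 members. Among the higher members 67 were higher in MZ than T1, 26 were higher in T1 (17 of them immunoglobulin segments) and 85 were not called. Among the lower members 48 were higher in T1 than MZ, so MZ lay farthest from the CD23-high subsets, 24 were higher in MZ and 80 were not called. The median size of the T1 minus MZ difference was 1.01 over the members and 0.38 over all genes tested.

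T2 and FO lay closer. They differed in 184 genes, 1.47%, and in 17 of the 330 members, 5.15%. In all 17 FO lay farther than T2 from the CD23-low subsets: 8 higher members were higher in T2 than FO and 9 lower members were lower in T2 than FO. Called or not, the FO mean was above the T2 mean in 129 of the 152 lower members (84.9%, against 50.1% of all genes tested) and below it in 125 of the 178 higher members (70.2%, against 49.9%). Fam101b, the lowest of the named genes apart from the sort marker Fcer2a, showed that step. It ranged from 0.09 to 0.47 RPKM in T1, 0.74 to 1.67 in MZ, 5.38 to 12.7 in T2 and 16.2 to 21.1 in FO.

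Receptors that set where a B-cell lodges were among the largest differences. S1pr3, a sphingosine-1-phosphate receptor of MZ cells, was at 10.4, 7.83, 11.0 and 7.43 RPKM in T1, 126, 115, 101 and 116 in MZ, 3.05, 2.28, 2.69 and 2.11 in T2, and 2.71, 2.77, 3.19 and 2.74 in FO. It was far highest in MZ, yet every T1 library was also above every CD23-high library. The T1 minus T2 difference was 1.66 and the MZ minus FO difference 5.10. Plxnd1, a semaphorin receptor, had the same shape, with 9.40, 60.1, 3.89 and 1.39 RPKM in T1, MZ, T2 and FO. Cxcr7, a scavenger of CXCL12, was called with a difference of 2.93, at 1.40 RPKM in T1 and 27.6 in MZ, but its T1 and T2 libraries overlapped.

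Other genes of homing were lower. Itgb7, the integrin chain for entry into gut tissue, was at 17.8, 29.0, 16.7 and 28.0 RPKM in T1, 9.31, 14.9, 10.8 and 17.7 in MZ, 63.6, 96.0, 67.6 and 103 in T2, and 122, 119, 124 and 113 in FO. The lowest T2 library was above the highest T1 library, and the class difference was -2.51 (SE 0.23). Ccr6 and Gpr174, a chemokine receptor and a lysophospholipid receptor, were called lower by -2.16 and -2.28, and both were lowest in T1. Of the 19 homing receptors listed, 2 were called higher and 4 lower, and 4 met the ordering each way (median -0.29, against -0.02 over all genes tested). Gpr183, 1 of the 4 called lower, missed the ordering.

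Of 20 integrins and adhesion genes, 2 were called higher and 2 lower. The higher 2 were the tetraspanins Cd9 (2.52) and Tspan15 (2.96), which had 54.2 and 26.1 RPKM in MZ and 4.18 and 0.35 in T1, and whose calls were lost in 7 and 16 of the alternatives tried. Among 15 RGS and G protein genes, which turn chemokine receptor signals off and on, Rgs10 and Rgs18 were called higher (lost in 13 and 9 of the alternatives) and Gna15 lower. Rgs18 was at 19.1 and 14.2 RPKM in T1 and MZ, against 11.1 in T2 and 5.57 in FO, and Gna15 at 2.52 and 2.67, against 5.41 and 6.46. Of 27 genes of the cytoskeleton and of migration, 25 lay below 0, 12 met the ordering as lower and 2 were called (median -0.38).

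The neonatal Fc receptor Fcgrt, which rescues IgG and albumin from lysosomes, was at 3.99, 5.67, 2.63 and 4.42 RPKM in T1, 2.04, 2.83, 1.49 and 2.49 in MZ, 15.9, 21.5, 18.01 and 22.6 in T2, and 22.4, 21.9, 21.5 and 20.9 in FO. All CD23-low libraries were under all CD23-high libraries, and the MZ mean was the lowest. The class difference was -2.59 (SE 0.19). Icosl, the ligand that a B-cell shows to the T cell receptor ICOS, ranged from 16.3 to 23.4 RPKM in T1, and was at 101 ± 9.66 in MZ, 168 ± 27.5 in T2 and 234 ± 15.8 in FO. Of the 13 marginal zone marker entries tested, which were chosen as such, 7 were called higher and 12 differed between T1 and MZ. The 13 entries are 12 genes, as Cr2 has 2 identifiers, and both of these differed between T1 and MZ. Among 15 genes of costimulation and CD1d, 2 were called higher and 3 lower. Cd1d1, which presents lipids to NKT cells, was higher by 1.91, and its T1 minus T2 difference was 0.37, under the size of a call.

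Crisp3, a secreted cysteine-rich protein, was at 0.62, 0.66, 0.76 and 0.83 RPKM in T1, 0.39, 0.71, 0.37 and 0.84 in MZ, 10.4, 10.7, 5.70 and 7.68 in T2, and 17.6, 18.9, 9.76 and 15.8 in FO. All CD23-low libraries were under 1 RPKM and all CD23-high libraries above 5 RPKM, and the class difference was -3.37 (SE 0.21). The p38 kinases Mapk11 and Mapk12, neighbours 1783 bases apart on chromosome 15, were both lower, by -2.65 and -2.93. Mapk12 ranged from 0.30 to 2.74 RPKM in T1 and 0.38 to 1.34 in MZ, and from 4.18 to 9.68 in T2 and 13.9 to 20.7 in FO. Dmwd and Dmpk also lie side by side, 1073 bases apart on chromosome 7, and both were members, by -2.39 and -1.73. Neighbours on 1 strand can share reads where a transcript runs on, so these pairs are not independent.

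Of 37 transcription factors, 2 were called higher and 3 lower, and Id2, 1 of the higher, missed the ordering. Bcl6, the repressor of the germinal centre programme, was at 16.8, 10.9, 15.6 and 11.0 RPKM in T1, 4.42, 4.89, 3.90 and 5.26 in MZ, and between 21.01 and 25.6 in all 8 CD23-high libraries. T1 was intermediate and MZ lowest, and T1 minus T2, at -0.82, did not reach the size of a call. Stat4, a relay of IL-12 signals, ranged from 1.01 to 2.40 RPKM in T1 and 10.2 to 12.8 in MZ, and from 14.4 to 25.3 in T2 and 26.4 to 32.7 in FO. Among 18 Notch pathway genes, 1 was called each way. Hes5, a Notch target, was higher by 1.35, with 7.26 RPKM in MZ and 1.11 in T1 against 0.80 in T2 and 1.00 in FO, and lost its call in 17 of the alternatives. Lfng, which adds sugar to Notch, was lower by -2.02, and had 3.42 RPKM in T1, 7.11 in MZ, 16.2 in T2 and 29.1 in FO.

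The 8 GIMAP GTPases, small proteins that sustain resting lymphocytes and lie in 1 cluster on chromosome 6, all 8 met the ordering as lower. Called were 3 of them, Gimap3, Gimap4 and Gimap7, with a median of -0.94. Gimap3 averaged 38.2 ± 17.5 RPKM in T1 and 79.9 ± 10.9 in MZ, against 193 ± 28.8 in T2 and 298 ± 31.7 in FO. T cells also express these genes, and T cell markers were lower in the same libraries. Of 10 tested, 8 met the ordering as lower, 8 had an unadjusted p under 0.05, and limma called 0 and limma-voom on recovered reads 2. The sum of the 12 listed was 4.23 to 25.9 RPKM in T1 libraries, 4.17 to 13.4 in MZ, 8.75 to 29.8 in T2 and 13.6 to 22.9 in FO. Their part in the difference was not tested.

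Of 23 genes for cholesterol synthesis and uptake, 13 met the ordering as lower and 3 were called lower, Abca1 and Sqle among them, while Scd2, a fatty acid desaturase, was called higher by 1.07 (median of the list -0.55). Among 13 genes of MHC class II presentation 12 lay below 0, with a median of -0.79. Ciita, the master regulator of these genes, was called and ordered at 47.2 RPKM in T1, 80.9 in MZ, 105 in T2 and 165 in FO. H2-Aa and H2-Eb2 were called lower but missed the ordering, and H2-Eb2 lost its call in 18 of the alternatives tried.

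Of 21 cytokine receptors tested, 1 was called higher, Csf2rb, the shared chain for IL-3, IL-5 and GM-CSF, and 3 were lower. Csf2rb ranged from 11.9 to 19.7 RPKM in T1 and 38.6 to 45.7 in MZ, and from 3.83 to 5.76 in the 8 CD23-high libraries. Il6ra was at 3.59 and 4.01 RPKM in T1 and MZ, against 7.25 in T2 and 13.5 in FO. Il4ra was at 58.8 and 23.2 RPKM in T1 and MZ, against 69.9 and 97.1. Of 19 genes of the NF-kB and BAFF pathway, 9 met the ordering as lower and 0 were called by limma or limma-voom, with 10 at an unadjusted p under 0.05 (median -0.29).

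Of 18 Toll-like receptors and adaptors tested, Ly96 (MD-2, which carries LPS to TLR4) was called higher, with 12.9 RPKM in T1, 25.5 in MZ, 7.14 in T2 and 3.80 in FO. Grn (progranulin, a lysosomal protein) was at 39.3 ± 6.09 RPKM in T1 and 72.3 ± 4.22 in MZ, against 15.6 ± 1.11 in T2 and 16.3 ± 1.34 in FO. Macrophages also express Grn, and of 15 macrophage markers tested 0 were called by limma or limma-voom, with 1 at an unadjusted p under 0.05. The sum of the 19 macrophage markers listed was 11.0 to 80.1 RPKM in T1, 27.2 to 55.0 in MZ, 51.7 to 116 in T2 and 10.7 to 25.7 in FO. Their part in the difference of Grn was not tested. Among 24 interferon response genes 3 were called higher, Mx1 at 25.3 and 17.4 RPKM in T1 and MZ against 13.1 and 6.74 among them.

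**Figure D4:**
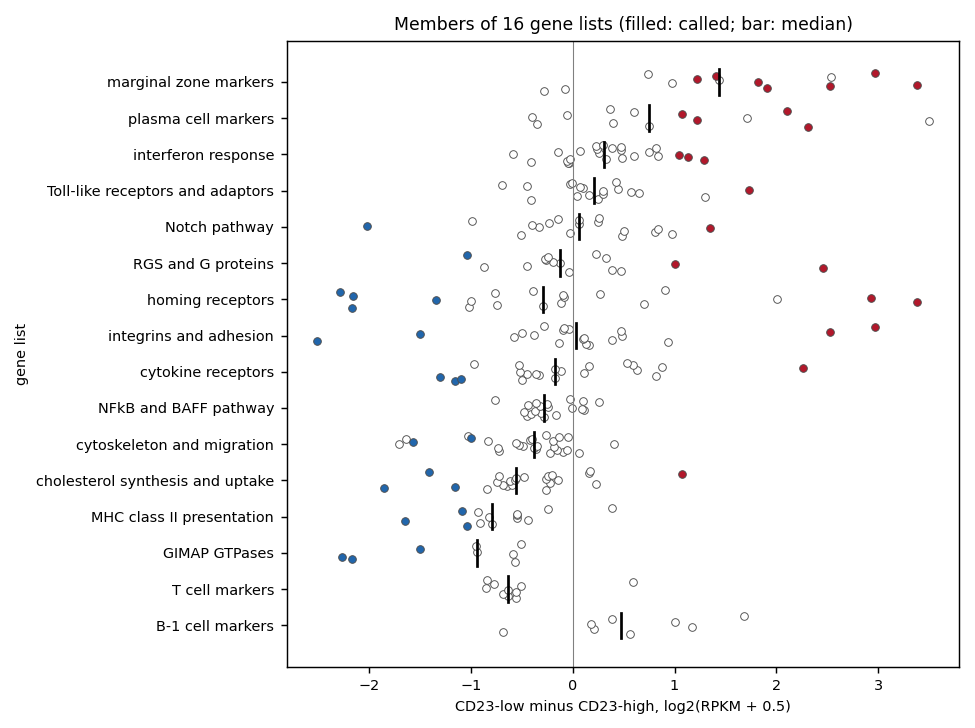
Each row is a gene list and each point a tested member, placed by its CD23-low minus CD23-high difference on the log2(RPKM + 0.5) scale. Red and blue points were called higher and lower, open points were not called, and the bar is the median. The marginal zone markers (median 1.44) lie farthest right and the GIMAP GTPases (median -0.94) farthest left.

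The lists of other cells the gates could hold bear on the genes of secretion. Of 13 plasma cell markers, 4 were called higher, Prdm1, Derl3, Mzb1 and Edem1, and 6 met the ordering. In all 10 lay above 0 and 3 below it, Sdc1 (-0.35), Fkbp11 (-0.40) and Txndc5 (-0.05). MZ minus FO was -2.76 for Sdc1 and -1.81 for Fkbp11. Derl3, which removes misfolded proteins from the endoplasmic reticulum, was at 11.5, 41.3, 19.7 and 59.1 RPKM in T1, 10.9, 11.6, 8.09 and 14.8 in MZ, 2.58, 3.63, 3.05 and 3.62 in T2 and 4.37, 3.86, 3.72 and 4.98 in FO. The T1 replicate 2 libraries were the highest for it, as for Prdm1 and for Oosp1 (1.72, 17.2, 2.12 and 10.3 RPKM in T1). Igj, the joining chain of secreted IgM, was at 428, 2799, 1148 and 3876 RPKM in T1 and at 6.09, 8.19, 16.3 and 17.3 in MZ. In T2 it was between 21.2 and 38.5, above every MZ library, in FO between 1.96 and 8.63, and it was not called between the classes. The summed level of the 13 markers was 1057 to 5051 RPKM in T1, 692 to 810 in MZ, 409 to 522 in T2 and 368 to 424 in FO. Mzb1, which is also on the list of marginal zone markers, made up 404 to 449 RPKM of the sum in MZ. The part of plasma cells in the differences was not tested.

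B-1 cells also carry little CD23. Of 8 B-1 cell markers 0 were called by limma or limma-voom, 4 had an unadjusted p under 0.05 and 3 met the ordering as higher, with a median of 0.47. Their sum was 30.0 to 104 RPKM in T1, 22.9 to 93.4 in MZ, 38.2 to 85.0 in T2 and 23.1 to 58.2 in FO. Much of this sum was Bhlhe40 in several libraries. Bhlhe40 was at 81.8 of the 93.4 RPKM in WT MZ replicate 1 and 10.5 of the 22.9 in KO MZ replicate 1. In WT T1 replicate 2 it was at 27.2 of the 104. The pan B cell genes summed to 10500 to 14000 RPKM in all libraries, and 0 of 10 were called by limma or limma-voom (3 at an unadjusted p under 0.05). Without the T1 replicate 2 libraries of both genotypes 326 genes were called with the ordering, and 260 of them were among the 330.

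**Figure D5:**
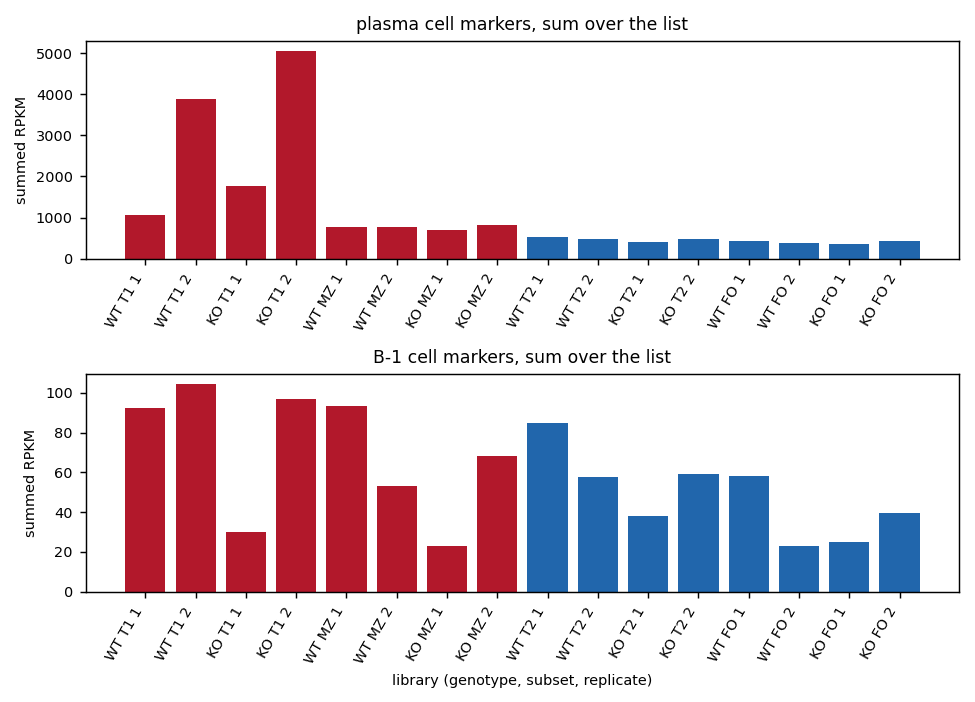
Bars are the summed RPKM of the 13 plasma cell markers (top) and the 8 B-1 cell markers (bottom) in each library, red for CD23-low and blue for CD23-high. The T1 replicate 2 libraries, at 3878 (WT) and 5051 (KO) for plasma cell markers, stand above all others. In several libraries much of the B-1 cell marker sum is Bhlhe40.

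The contrast was also made within each genotype, on separate libraries. In WT alone 85 genes were called, 0.680%, and in KO alone 90, 0.720%, with 61 shared, 71.8% of the WT and 67.8% of the KO list, and 0 in opposite directions. Of the 85, 84 had the same sign in KO, and all 90 had the same sign in WT. Across all genes tested the WT and KO class differences correlated with Pearson's r = 0.83. The share of all genes tested with the same sign was not counted, so the agreement in sign of the called genes has no background beside it. The ordering was met in 3565 genes in WT and 4071 in KO, in the same direction in 2425 and in opposite directions in 51. The interaction of class and genotype called 0 genes by limma or limma-voom, with 43 genes at an unadjusted p under 0.05, 0.344% of those tested, 1 of them among the 330. Between KO and WT across subsets 5 genes were called, 0.0400%, and 0 of the 330 were among them by limma or limma-voom, with 5 at an unadjusted p under 0.05. Both tests left the differences between T1 and MZ and between T2 and FO in their residuals, so they could call little. These low counts therefore do not show that the members are alike in WT and KO.

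Maturity is the other gate that parts these subsets into pairs. Transitional (T1 and T2) and mature (MZ and FO) libraries differed in 798 genes, 6.38%, and 4297 genes (34.4%) had both transitional means on 1 side of both mature means in each genotype, against the 2425 that followed CD23. Of the 330 members, 17 (5.15%) were also called by maturity.

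Genes that were called in opposite directions in the 2 steps are no members. Il9r, the IL-9 receptor, had a T1 minus T2 difference of -3.59 and an MZ minus FO difference of 2.56, and a class difference of -0.52. Sdc1 (CD138, a proteoglycan of plasma cells) had differences of 2.05 and -2.76, and Akap12, a scaffold for protein kinase A, of 2.15 and -2.01.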

How the data were processed

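RNA-Seq was made from 16 libraries, 2 replicates in each of 8 groups. After quality and adapter filtering, the authors used TopHat to align to mm10 (GRCm38), retained unique alignments and deposited RPKM per gene. They used DESeq and edgeR on counts, which were not used here. No tool version is given in the sources used here.

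RPKM steps gave whole reads (tolerance 0.01 reads) for all 23194 genes above 0. limma 3.58.1 in R 4.3.3, with a trend of the variance, was fitted on log2(RPKM + 0.5), a scale that understates changes of low genes, to class and genotype or to subset and genotype. Python 3.11.15 prepared the values. On simulated data, at ratios of 3 and 6, the class test recovered 93 and 96 of 100 genes. It made 0 false calls among the unchanged genes of the 12109 tested. The simulation had a single fixed dispersion, no genotype, pool or replicate effect, and no low genes among those changed. The real replicates vary more in places, as in T1, so these rates need not hold for them.

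The members and the 36 gene lists (535 genes tested) were chosen with earlier results of these data known. Named genes were the 14 largest differences each way without overlap (no segments, sort markers or predicted genes), the 2 highest and 2 lowest of each list, the 4 lowest interaction p and the most opposed genes. Another 32 genes, Lmo2, Cd83, Sqle and Grn among them, were added after their values were seen, and a few genes are not reported here. Promoter matches to an NF-kB and a STAT type motif were also searched and are not reported. Alternatives were other pseudocounts, no filter, other scalings, a replicate block, limma-voom on recovered reads, a model of the 4 subsets, no fold criterion, 1 genotype, no segments and leaving out libraries.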

Additional observations from a re-analysis of the deposited data

Results flagged for a closer look

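Each of the 28 leading genes was tested in the 8 CD23-low and in the 8 CD23-high libraries for a library that lay far from the rest, 56 groups in all, with Dixon's ratio on the log2(RPKM + 0.5) scale (critical value 0.526 for 8). In 1 group a library stood out. Oosp1, an oocyte-secreted protein, was at 0.273 RPKM in WT FO replicate 1, with a ratio of 0.566, and at 0.552 to 0.833 RPKM in the other CD23-high libraries. Chance alone would flag about 1 in 20 groups only if the 8 libraries of a group came from a single population. Here each group joined different subsets. For S1pr3, the CD23-low libraries ran from 7.43 to 11.0 RPKM in T1 and from 101 to 126 in MZ. Such a gap widens the range against which a library is judged. The rate therefore need not hold, and the lack of other flags does not show that no library was outlying within its subset.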

How the results depend on the processing

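Of 93 named genes called, 63 kept the call in every alternative in which they were fitted, and 0 changed sign. The counts that moved by over 1.5 times are given by setting. A pseudocount of 0.1 gave 125 genes called in opposite steps and 45 class genes called between T2 and FO, where a pseudocount of 1 gave 14. limma-voom gave 207 genes in the same and 146 in opposite steps, and 51 class genes between T2 and FO. With no fold criterion 1859 genes were called between the classes, 1704 with the ordering, 1090 in the same and 987 in opposite steps, 1012 and 424 of the class genes between T1 and MZ and between T2 and FO, and 4515 by maturity. The model of the 4 subsets called 543, of which 370 differed between T1 and MZ and 39 between T2 and FO. WT libraries gave 85 and KO libraries 90. With no overlap required, 567 genes met the ordering and 192 were also called.

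Leaving out 1 library gave 289 to 444 class genes, 285 to 377 with the ordering, 2117 to 2641 ordered, 119 to 146 in the same and 63 to 76 in opposite steps, 131 to 252 and 15 to 33 of the class genes between T1 and MZ and between T2 and FO, 641 to 924 by maturity, and 0 for the interaction. The 15 came without WT FO replicate 1. Without the T1 replicate 2 libraries, chosen after seeing the data, 316 class genes differed between T1 and MZ. Without the KO replicate 1 libraries, also chosen after, 97 did, and 12 between T2 and FO.

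Whether replicate numbers pair the libraries could not be settled, and they were not treated as pairs: within a genotype the deviations of same-numbered libraries correlated with r = 0.0756 to 0.453 over 12 pairs of subsets, all above 0 and 10 of them over 0.1. With the replicate block 323 class genes were called, 311 with the ordering, 309 of them among the 330, and 135 in the same and 79 in opposite steps. Hes5, H2-Eb2, Cd80 and Tspan15, called here, lost the call in 16 or more alternatives. Depth limits the low genes: values under 1 RPKM rest on few reads.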
